A study of Homo sapiens with 8 samples.

Results

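SMARCB1 was knocked down in SK-Hep1 cells, an established human liver cancer line that has been described as endothelial in character, and gene expression was compared on 2 knockdown arrays and 2 control arrays. These 4 arrays, of 8 in the series, were chosen by their titles and by the cell line given for each sample. The knockdown cells carried a short hairpin RNA against SMARCB1 (arrays numbered 11 and 12) and the control cells a control hairpin (arrays 1 and 2), and cells of both groups were selected with puromycin at 1.25 µg/mL. No source used here says whether 11 and 12 stand for different hairpins, which control sequence was used, or whether the stable lines were pools or clones. The other 4 arrays, of the hepatoma line Huh7 with SMARCB1 knocked down (2 arrays) or with a control whose title names GFP (2 arrays), served to estimate the spread and, where stated, to compare the lines. In the labels the arrays of one group share a replicate number and no separate cultures are mentioned, so all p-values rest on array-to-array spread, which may be technical.

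SMARCB1 encodes a core subunit of the SWI/SNF complexes, which use ATP to slide or evict nucleosomes at promoters and enhancers and so open DNA to transcription factors. It is lost in malignant rhabdoid tumours, and its complexes are known to oppose Polycomb repression and to act with factors such as AP-1 at enhancers. In liver cancer cells, the questions such a knockdown addresses are which genes depend on this subunit and in which direction they move when it is scarce.

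Of 20044 genes named on the array, 12728 were brighter than background probes and were tested. Values are the deposited log2 intensities of the brightest probe of a gene, given for knockdown arrays 11 and 12 and then for control arrays 1 and 2. Differences are knockdown minus control on the log2 scale with the standard error (SE, n = 2 arrays a group), and adjusted p-values come from a limma fit, adjusted over the 12728 genes by Benjamini-Hochberg. A gene is said to have risen or fallen where its adjusted p was under 0.05. Over all genes tested, the difference between arrays of one group had an SD of 0.173 for the knockdown pair and 0.135 for the control pair. As deposited, the 2 cell lines have nearly the same mean for every gene (no gene differed by more than 0.5 between the means of the 2 lines), so the level of a marker does not check the line's label. Whether differences between the lines were taken out before deposit is not stated in the sources used here, and a level given for SK-Hep1, whether bright, dim or below background, may be a mean over both lines and not its own. Differences between knockdown and control were taken within SK-Hep1. Of 10 endothelial markers on the array, 8 were below the background cutoff of 6.97, VWF, CDH5 and TEK among them, and 12 of 13 hepatocyte markers were above it, with levels within 0.29 of those of the Huh7 arrays.

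SMARCB1 itself read 9.30 and 9.67 on the knockdown arrays and 10.68 and 10.61 on the control arrays. Its difference of -1.16 ± 0.107 SE left 44.7% of the control signal (limma adjusted p = 0.000106). Both knockdown arrays lay below both controls, and array 11 was the lower of the pair. The other SMARCB1 probe read 8.92 and 9.04 after knockdown, against 10.17 and 9.78 in controls, which left 50.0%. In RNA from a whole culture, fewer cells that express a gene and less of its RNA per cell cannot be told apart. Of the 25 other SWI/SNF subunit genes tested, 1 rose (4%, against 8.04% of all genes) and 1 fell (4%, against 8.19%), with a median of -0.05. BICRAL, a subunit of the non-canonical complex, read 8.63 and 8.36 after knockdown and 8.99 and 9.10 in controls, a fall of 0.55 (adjusted p = 0.00385), and SS18L1 was at 0.25 on its brightest probe and at -0.12 on its other probe, with an adjusted p of 0.178 without control array 1, 0.068 without control array 2 and 0.102 without knockdown array 12. With knockdown array 12 left out, 3 subunit genes fell. The ATPase gene SMARCA4 differed by 0.11, the scaffold gene SMARCC1 by -0.15 and the DNA-binding subunit gene ARID1A by 0.13, and none of these differences passed the threshold.

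In all, 2066 genes passed the threshold (16.2%), 1023 higher (8.04%) and 1043 lower (8.19%). Every count of list members is to be read beside the last 2 shares. Their median size was 0.358, and 262 of them moved at least 1.5-fold. Rises outnumbered falls among the large changes: 46 genes rose at least 2-fold (0.361%) and 13 fell at least 2-fold (0.102%), and for all 59 the knockdown and control arrays did not overlap. Over all genes tested, both knockdown arrays lay above both controls for 25.8% and below both for 28.4%. The count of genes past the threshold was 910 without control array 1 and 1197 without control array 2, whereas the 59 genes changed at least 2-fold kept their calls wherever they were tested in 16 alternative settings (FOLR3 and SBSN were not tested with the stricter background cutoff of 7.47).

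**Figure D1:**
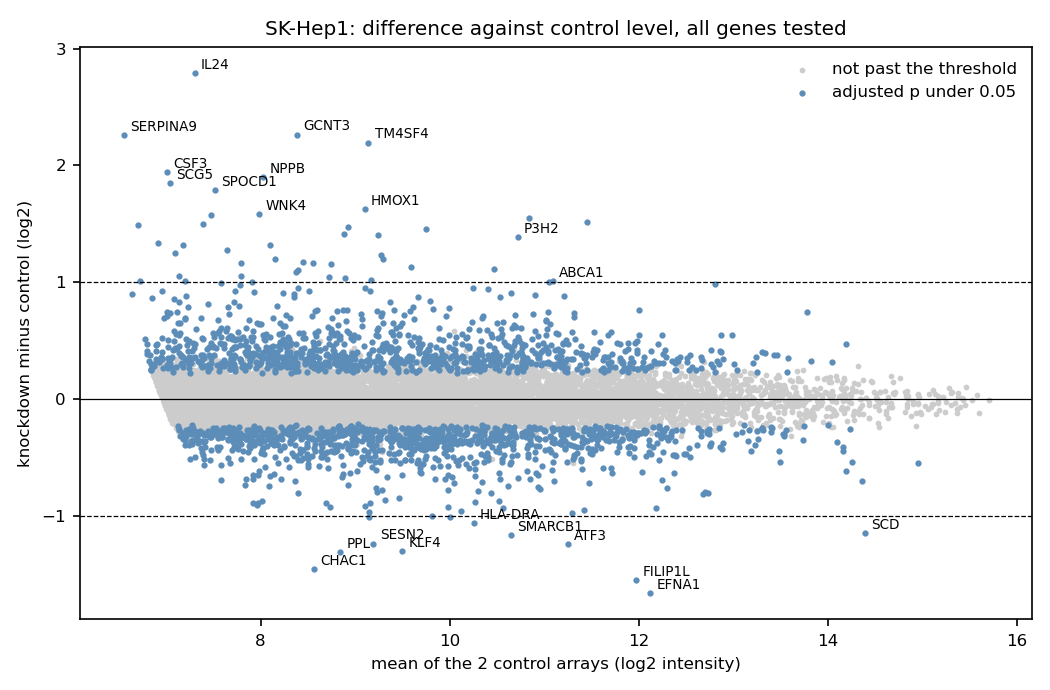
Each point is 1 of the 12728 genes tested, placed by the mean of the 2 control arrays (log2 intensity, x axis) and by knockdown minus control (log2, y axis), in blue where the adjusted p was under 0.05, with dashed lines at 2-fold. IL24 is the highest point at 2.79 and EFNA1 the lowest at -1.66, and the control mean was under 8 for 19 of the 46 rises of at least 2-fold and for 0 of the 13 such falls.

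Several secreted signals rose at least 2-fold. IL24, which belongs to the IL-10 family of cytokines and had the largest rise of all genes tested, read 9.90 and 10.29 on the knockdown arrays and 7.36 and 7.25 on the control arrays, a rise of 2.79 ± 0.121 SE (6.92-fold, adjusted p = 1.47e-06). Its control level was close to the background cutoff, and its other probe gave 1.62. CSF3, which encodes granulocyte colony-stimulating factor, read 8.86 and 9.04 after knockdown and 7.06 and 6.96 in controls (1.94 ± 0.0858 SE, adjusted p = 1.47e-06), and control array 2 was below the background cutoff. CXCL6, a chemokine that draws neutrophils, read 12.23 and 12.55 after knockdown and 10.79 and 10.89 in controls, and was bright in both groups (1.55 ± 0.0966 SE, adjusted p = 7.65e-06). CCL5, a chemokine for T cells and monocytes, read 10.11 and 9.69 after knockdown and 8.65 and 8.83 in controls, with array 11 the higher of the knockdown pair (1.16 ± 0.124 SE, adjusted p = 0.000279). Its other probe gave 0.78. FGF2, a fibroblast growth factor, read 10.20 and 10.16 after knockdown and 9.09 and 9.24 in controls (1.02 ± 0.0884 SE, adjusted p = 7.67e-05, and 0.82 on its other probe).

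Cytokine and chemokine ligands as a list moved in both directions. Of 34 tested, 11 rose (32.4%, against 8.04% of all genes) and 4 fell (11.8%, against 8.19%), and their median was 0.15, against -0.01 over all genes. IL12A, a subunit of interleukin-12, read 8.99 and 9.69 after knockdown and 8.37 and 8.42 in controls, a rise of 0.95 that was 0.60 without knockdown array 12. The eotaxin gene CCL26 rose by 0.70, IL1B by 0.53, IL32 by 0.47 and IL6 by 0.46. The chemokine gene CCL20 read 11.63 and 11.48 after knockdown and 12.21 and 12.29 in controls, a fall of 0.69 (adjusted p = 0.000317), and CXCL16 also fell (-0.37). The adjusted p was 0.0631 for CCL26 without control array 1 and 0.0742 for IL6 without control array 2. CXCL8 differed by 0.02 and did not pass the threshold. Without control array 1, 8 ligands rose and 2 fell. Of 25 NF-kB subunit and feedback genes, 6 fell (24%) and 2 rose (8%). Those that fell included the inhibitor gene NFKBIA, which NF-kB itself switches on (-0.54), the subunit genes NFKB1 (-0.39) and RELB (-0.52), and TNFAIP2 (-0.79). SOD2, the mitochondrial superoxide dismutase, rose by 0.98 and TNIP1 by 0.53.

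Peptide hormones and their processing enzymes had 9 genes higher (36%) and 2 lower of 25 tested, with a median of 0.07. NPPB, which encodes the B-type natriuretic peptide, read 10.26 and 9.59 after knockdown and 7.98 and 8.07 in controls, with both knockdown arrays well above the controls and array 11 the higher (1.90 ± 0.164 SE, adjusted p = 7.61e-05). SCG5, a chaperone of prohormone convertase, read 8.71 and 9.07 after knockdown and 6.997 and 7.09 in controls (1.85 ± 0.107 SE, adjusted p = 4.51e-06). Stanniocalcin 1 (STC1) rose by 0.90, endothelin 1 (EDN1) by 0.64 and adrenomedullin (ADM) by 0.55. Galanin (GAL) read 7.84 and 7.76 after knockdown and 8.76 and 8.70 in controls, a fall of 0.93 (adjusted p = 2.72e-05), and STC2, the other stanniocalcin gene, fell by 0.55. Leaving out either control array brought the number that rose to 6.

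**Figure D2:**
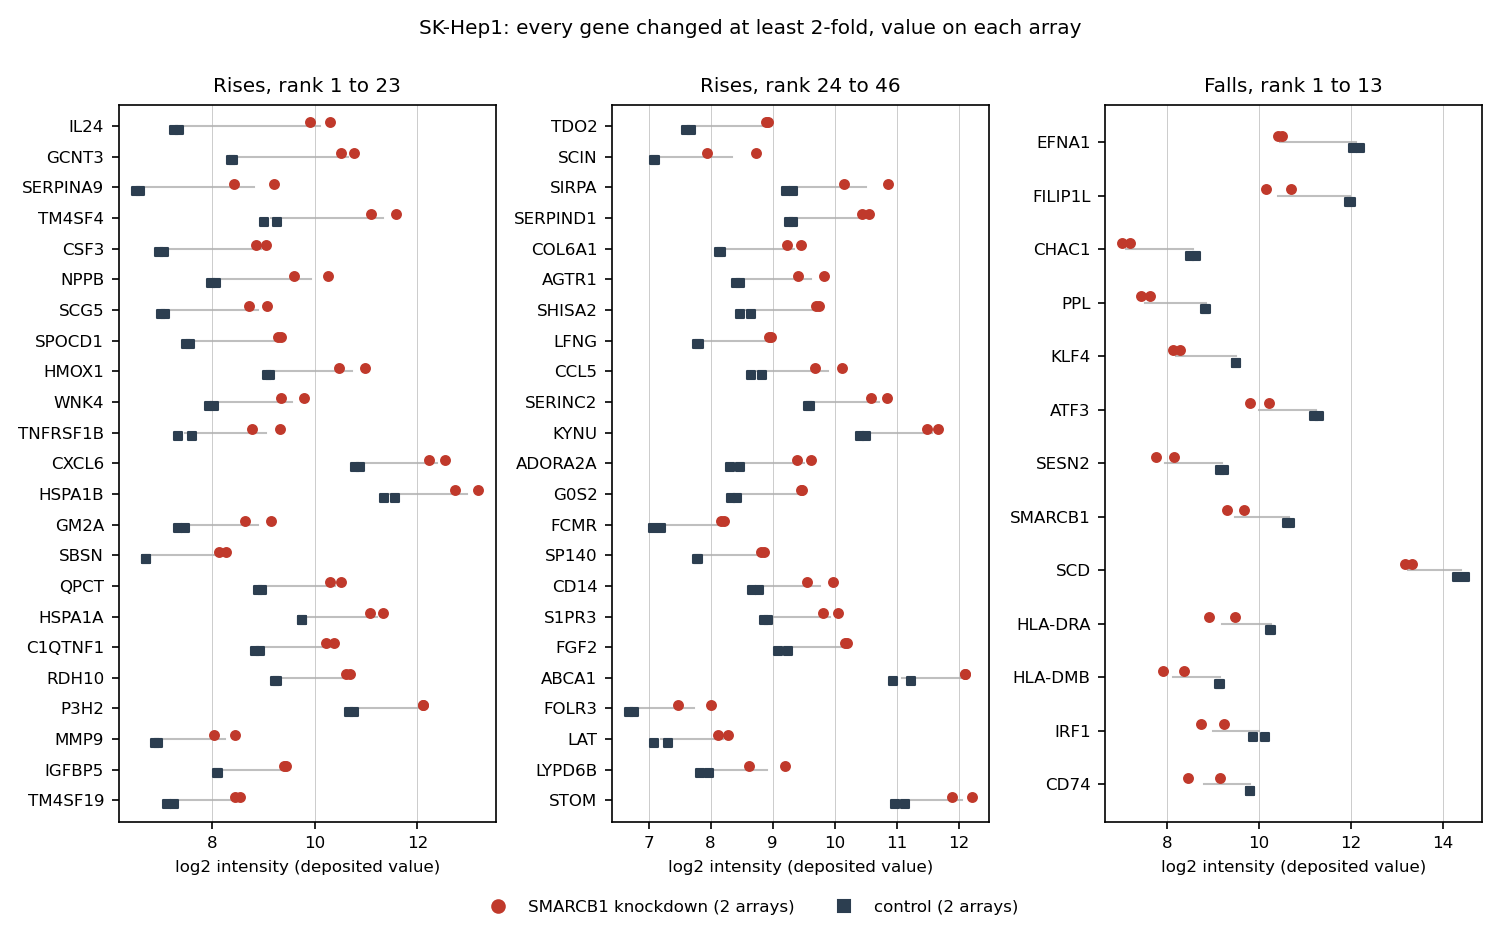
All 46 rises and 13 falls of at least 2-fold in SK-Hep1, with the log2 intensity (x axis) of the 2 knockdown arrays as red circles and of the 2 control arrays as dark squares, and a grey line between the group means. The knockdown and control arrays do not overlap for any gene shown, and the knockdown pair is spread most widely for SERPINA9, SCIN, SIRPA, CD74 and NPPB.

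Several receptors and membrane proteins were among the genes that rose at least 2-fold. TNFRSF1B, the second receptor for tumour necrosis factor, read 8.78 and 9.32 after knockdown and 7.33 and 7.61 in controls (1.58 ± 0.157 SE, adjusted p = 0.000171). AGTR1, the type 1 angiotensin II receptor, read 9.42 and 9.82 after knockdown and 8.48 and 8.42 in controls (1.17 ± 0.112 SE). The adenosine receptor gene ADORA2A rose by 1.11 and the sphingosine 1-phosphate receptor gene S1PR3 by 1.04. SIRPA, the receptor for CD47, read 10.15 and 10.86 after knockdown and 9.21 and 9.32 in controls, with array 12 the higher of the knockdown pair (1.24 ± 0.171 SE). Its other probe gave 0.76. CD14, a co-receptor for bacterial lipopolysaccharide, rose by 1.04 on its brightest probe and by 0.52 on its other probe. Among the tetraspan L6 membrane proteins, 3 of 5 rose and none fell. TM4SF4 read 11.09 and 11.58 after knockdown and 9.01 and 9.27 in controls (2.20 ± 0.141 SE, adjusted p = 9.15e-06), TM4SF19 rose by 1.32 and TM4SF1 by 0.47. The folate receptor gene FOLR3 (1.01) and SBSN (1.49) rose as well, and their control arrays were below the background cutoff. The knockdown mean was 1.71-fold over the cutoff for FOLR3 and 2.35-fold for SBSN. As deposited levels may not be the line's own, these values are no lower bounds of the rise. SPOCD1 read 9.35 and 9.27 after knockdown and 7.48 and 7.56 in controls (1.79 ± 0.0888 SE, adjusted p = 2.08e-06). The secreted C1q-like protein gene C1QTNF1 rose by 1.42, and the nuclear body protein gene SP140 by 1.05 on its brightest probe and as little as 0.73 on its others. The actin-severing protein gene SCIN rose by 1.25, with 7.95 and 8.73 after knockdown and 7.10 and 7.09 in controls. Other membrane and signalling genes with rises of at least 2-fold were LYPD6B (1.00), SHISA2 (1.17), SERINC2 (1.13), STOM (1.00), the IgM receptor gene FCMR (1.06) and the T cell adaptor gene LAT, at 1.01 on its brightest probe and as little as 0.21 on its others. The other probe of LYPD6B gave 0.60 and that of STOM 0.76. WNK4, a kinase that regulates salt transporters, read 9.35 and 9.78 after knockdown and 7.94 and 8.03 in controls (1.58 ± 0.12 SE, adjusted p = 3.42e-05), and it was the 1 gene that changed among 15 WNK and chloride cotransport genes tested (2 rose and 1 fell without knockdown array 11).

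GCNT3, which makes branched mucin-type glycans, read 10.52 and 10.77 after knockdown and 8.37 and 8.396 in controls (2.26 ± 0.0862 SE, adjusted p = 9.79e-07). Its relative GCNT1 rose by 0.88, and of 28 mucin-type glycan enzymes 8 rose (28.6%, against 8.04% of all genes) and 1 fell, with a median of 0.09, and 2 fell without knockdown array 12 or without control array 1. Some metabolic enzyme genes rose at least 2-fold. TDO2, which opens the tryptophan ring at the start of the kynurenine pathway, read 8.93 and 8.90 after knockdown and 7.68 and 7.60 in controls (1.27 ± 0.0741 SE). KYNU, kynureninase of the same pathway, read 11.48 and 11.66 after knockdown and 10.42 and 10.51 in controls (1.11 ± 0.0849 SE). The arrays of each group lay close together for both genes. The retinol dehydrogenase gene RDH10 rose by 1.40, the glutaminyl cyclase gene QPCT by 1.47, and G0S2, an inhibitor of adipose triglyceride lipase, by 1.09. The ganglioside activator gene GM2A read 9.15 and 8.64 after knockdown and 7.47 and 7.33 in controls (adjusted p = 0.00046). LFNG, which adds sugars to Notch receptors, rose by 1.17 ± 0.0677 SE on its brightest probe and by 0.07 on its other probe. Of 21 Notch pathway genes 6 rose (28.6%) and none fell, NOTCH1 by 0.36 and MFNG by 0.37, but 3 rose without either knockdown array or without control array 2, and 2 without control array 1. Without knockdown array 11, 1 fell. NOTCH1 was at 0.22 with an adjusted p of 0.138 without control array 1 and its adjusted p was 0.0597 without knockdown array 11, and that of MFNG was 0.0573 without control array 2.

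Matrix genes moved in a split pattern. All 3 chains of type VI collagen on the tested list rose, a collagen that forms beaded filaments around cells. COL6A1 read 9.47 and 9.23 after knockdown and 8.14 and 8.17 in controls (1.20 ± 0.084 SE, adjusted p = 1.94e-05). COL6A2 read 8.90 and 8.62 after knockdown and 7.94 and 7.63 in controls (0.98 ± 0.126 SE), and COL6A3 rose by 0.35. The basement membrane collagen genes COL4A1 (0.95) and COL4A2 (0.40) also rose, whereas COL4A5 fell by 0.40 and COL4A6 by 0.45. The fibrillar collagen gene COL5A2 read 11.76 and 11.72 after knockdown and 12.32 and 12.42 in controls, a fall of 0.63 (adjusted p = 0.000309), and COL3A1 fell by 0.46. COL1A1 and COL1A2 differed by -0.09 and 0.10 and did not pass the threshold. In the whole list of 39 collagen and basement membrane genes, 11 rose (28.2%) and 5 fell (12.8%), with a median of 0.10. Without control array 1, 6 rose and 3 fell, and without control array 2, 3 fell. The adjusted p of COL6A3 was 0.131 without knockdown array 11, 0.165 without control array 1 and 0.0881 without control array 2, that of COL4A2 was 0.0928 and of COL4A5 0.0661 without control array 1, and that of COL3A1 was 0.0822 without control array 2.

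Collagen modifying enzymes had 8 of 19 genes higher and 1 lower. P3H2, a prolyl 3-hydroxylase, read 12.11 and 12.11 after knockdown and 10.77 and 10.66 in controls (1.39 ± 0.0717 SE, adjusted p = 2.43e-06), and the others that rose did so by at most 0.41. Of these enzymes 3 rose without either control array and 5 without knockdown array 11, and the number that fell was 2 without knockdown array 11 and 0 without control array 2. Among 46 proteases and protease inhibitors 15 rose (32.6%) and 2 fell (4.35%), with a median of 0.12. With the 4 SK-Hep1 arrays fitted alone, 12 rose and 2 fell. MMP9, a gelatinase, read 8.45 and 8.04 after knockdown and 6.87 and 6.95 in controls, where both arrays were below the background cutoff (1.33 ± 0.122 SE, adjusted p = 0.000102). Its knockdown mean was 2.43-fold over the cutoff as deposited. MMP15 rose by 0.93, stromelysin MMP3 by 0.87 (control array 2 below the cutoff), the inhibitor gene TIMP3 by 0.60 and cathepsin L (CTSL) by 0.55. SERPINA9 read 8.43 and 9.20 after knockdown and 6.59 and 6.51 in controls, both of which lay below the cutoff (2.26 ± 0.186 SE, adjusted p = 5.42e-05, and 1.71 on its other probe). Its knockdown mean was 3.61-fold over the cutoff as deposited. SERPIND1, heparin cofactor II, rose by 1.20. MMP11 fell by 0.53 and ADAMTS6 by 0.41, and 4 genes of the list fell without either knockdown array.

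Growth factor binding proteins of the IGF family moved both ways. IGFBP5 read 9.41 and 9.44 after knockdown and 8.09 and 8.11 in controls (1.32 ± 0.0642 SE, adjusted p = 2.08e-06), IGFBP4 rose by 0.88 and IGFBP7 by 0.78. IGFBP2 read 9.22 and 9.18 after knockdown and 10.11 and 9.85 in controls, a fall of 0.78 (adjusted p = 0.000432). Of the wider list of growth factor genes that follows, 17.6% rose and 11.8% fell, against 8.04% and 8.19% of all genes. In the list of EGF, FGF, PDGF and IGF ligands, receptors and binding proteins, 6 of 34 rose and 4 fell. With the 4 SK-Hep1 arrays fitted alone, 5 rose and 3 fell. The median of this list was 0.02, and it ran from -0.001 to 0.05 with 1 SK-Hep1 array left out. Of 36 TGF-beta and BMP genes 6 rose (16.7%) and 1 fell. Those that rose included the BMP antagonist gene GREM1 (0.86, and 0.57 without knockdown array 12) and ID2 (0.57). The median of the list was 0.12. It was 0.008 without knockdown array 11, 0.06 without knockdown array 12, 0.08 without control array 1 and 0.12 without control array 2.

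Heat shock chaperones and metallothioneins, which are both classically switched on by stress, had members that rose and none that fell. HSPA1A read 11.08 and 11.34 after knockdown and 9.75 and 9.75 in controls (1.46 ± 0.0914 SE, adjusted p = 7.77e-06). HSPA1B read 12.74 and 13.19 after knockdown and 11.56 and 11.34 in controls (1.51 ± 0.127 SE). These 2 genes encode nearly the same protein and their probes may read both, so their separate values are uncertain. HSPA8, the constitutive member, read 14.53 and 14.52 after knockdown and 13.82 and 13.74 in controls (0.75 ± 0.0784 SE, adjusted p = 0.000246). HSPA6 rose by 0.90, with both controls below the background cutoff and a knockdown mean 1.49-fold over it as deposited, and HSPA2 rose by 0.75. In all 9 of 27 heat shock genes rose (33.3%), 5 of them without control array 2 and 6 without control array 1 or knockdown array 11, and the median of the list was 0.08. The HSP90 genes HSP90AA1 and HSP90AB1 (-0.07 and -0.14) and the co-chaperone gene DNAJB1 (-0.07) did not pass the threshold. Of 10 metallothionein and zinc genes 6 rose, from MT1X at 0.38 to MT1G at 0.66, and the zinc-dependent regulator gene MTF1 (-0.17) did not pass the threshold. The 6 include the zinc transporter gene SLC39A10. Without control array 1, MT1E was at 0.28 and SLC39A10 at 0.37. Where the limma fit weighted the arrays, 5 of the list rose and MT1E did not pass the threshold (limma adjusted p = 0.0568). Probes of the MT1 genes may read each other, as the genes are near copies. HMOX1, heme oxygenase 1, read 10.48 and 10.98 after knockdown and 9.12 and 9.08 in controls (1.63 ± 0.128 SE, adjusted p = 4.12e-05). Of 33 NRF2 target and heme genes 8 rose and 4 fell, with 2 rising and 2 falling without control array 1, 4 rising without control array 2 and 5 rising without knockdown array 12. The drug exporter gene ABCC3 rose by 0.47, while the cystine transporter gene SLC7A11 fell by 0.55. Of the NRF2 and heme list 24.2% rose and 12.1% fell, against 8.04% and 8.19% of all genes.

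The 250 bases upstream of the transcription start are shown for 2 heat shock genes whose levels rose, because heat shock factor binds repeats of the unit GAA spaced by 2 bases and facing each other (GAANNTTC, which reads the same on both strands). Capitals mark matches to these letters. The sequences are from RefSeq (GRCh38.p14), HSPA8 at chr11:123062137-123062386 (minus strand) and HSPA1A at chr6:31815293-31815542 (plus strand), written 5′ to 3′ in the direction of the gene.
HSPA8: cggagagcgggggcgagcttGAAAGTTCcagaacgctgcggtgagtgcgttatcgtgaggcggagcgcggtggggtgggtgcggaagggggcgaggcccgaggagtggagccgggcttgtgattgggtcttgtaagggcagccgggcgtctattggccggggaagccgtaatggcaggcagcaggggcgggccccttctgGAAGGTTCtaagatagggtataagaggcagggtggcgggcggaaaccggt
HSPA1A: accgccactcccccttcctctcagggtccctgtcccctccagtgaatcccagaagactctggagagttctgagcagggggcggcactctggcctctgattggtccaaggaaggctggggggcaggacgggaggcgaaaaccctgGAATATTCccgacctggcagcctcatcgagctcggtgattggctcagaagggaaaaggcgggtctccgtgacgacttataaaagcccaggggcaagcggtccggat
HSPA8 holds 2 matches and HSPA1A holds 1. Over all 27305 promoters of this length, 5.85% held a match. Of the 27 heat shock genes tested, 25 were matched to a promoter and 10 of these held one (40%), including 6 of the 9 that rose. A match is a description of the sequence and no measurement of binding.

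MHC class II genes display peptides to helper T cells and are switched on by the coactivator CIITA, in many cell types under interferon gamma. Of 16 class II genes tested, 11 fell (68.8%, against 8.19% of all genes), none rose, and the median was -0.55, against -0.01 over all genes. The invariant chain gene CD74 read 9.16 and 8.46 after knockdown and 9.81 and 9.81 in controls (a 2-fold fall, adjusted p = 0.00361, and -0.65 without knockdown array 12). HLA-DRA, the alpha chain of HLA-DR, read 9.49 and 8.90 after knockdown and 10.27 and 10.24 in controls (-1.06 ± 0.148 SE, adjusted p = 0.00128). HLA-DMB, part of the peptide-loading HLA-DM, read 8.36 and 7.91 after knockdown and 9.15 and 9.14 in controls (-1.01 ± 0.12 SE, adjusted p = 0.000489). For each of these genes both knockdown arrays lay below both controls, which were within 0.05 of each other, and array 12 was the lower of the knockdown pair.

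Array 12 was below array 11 for all 11 class II genes that fell, and the median over the list was -0.41 on array 11 and -0.69 on array 12, each against the mean of the same 2 controls. HLA-DPA1 fell by 0.76, HLA-DMA by 0.57 and CIITA by 0.52 (adjusted p = 0.0316). For CIITA, knockdown array 12 was below the background cutoff. CIITA read 7.22 and 6.68 after knockdown and 7.55 and 7.39 in controls, near the background cutoff, and its adjusted p was 0.18 without control array 1, 0.0797 without control array 2 and 0.107 without knockdown array 12. RFX5, a subunit of the factor that recruits CIITA, fell by 0.41 on its brightest probe and was at 0.19 on its other probe. HLA-DRB1, HLA-DRB3, HLA-DRB4 and HLA-DRB6 are near copies, their probes may read each other, and individuals differ in which of them they carry, so their separate values are uncertain, -0.89 for HLA-DRB6, -0.67 for HLA-DRB4 (0.14 on its other probe), -0.59 for HLA-DRB3 and -0.29 for HLA-DRB1. Without knockdown array 12, HLA-DPA1 was at -0.51 and HLA-DRB4 at -0.44. The adjusted p was 0.054 for HLA-DRB4 without control array 1, and for HLA-DRB1 0.12 without control array 1 and 0.0697 without knockdown array 12. The lysosomal thiol reductase gene IFI30 (0.02) did not pass the threshold. Between 8 and 13 class II genes fell with any 1 SK-Hep1 array left out.

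The same 4 arrays showed other genes of antigen presentation and immune cells. Of the class I list 28.6% fell and 4.76% rose, and of the interferon list 16.7% fell and 4.76% rose. Over all genes 8.19% fell and 8.04% rose. Of 21 MHC class I genes 6 fell and 1 rose, the immunoproteasome gene PSMB9 by 0.59 and the peptide transporter gene TAP1 by 0.37, with 3 falling without either control array, 9 falling without knockdown array 11 and 2 rising without knockdown array 12. The adjusted p of TAP1 was 0.0515 without control array 2. The class I light chain gene B2M (-0.07) did not pass the threshold. IRF1, a transcription factor induced by interferon, read 9.25 and 8.73 after knockdown and 9.87 and 10.13 in controls (-1.01 ± 0.143 SE, adjusted p = 0.00134). Of 42 interferon response genes 7 fell and 2 rose with a median of -0.05, but 12 fell without knockdown array 11, 3 fell and 5 rose without array 12, 2 fell and 1 rose without control array 1, and 4 fell without control array 2. Of 9 immune cell markers on the array, 5 were above the cutoff and 2 of them rose, CD14 and the lysosomal protein gene CD68 (0.61). Their summed level (log2 of the sum of all 9) was 12.15 and 12.12 on the knockdown arrays and 11.6 and 11.66 on the control arrays, and its part in the class II result was not tested. PTPRC, the common leukocyte antigen, read 6.63 and 6.71 after knockdown and 6.83 and 6.73 in controls, all below the cutoff, and CD3E, NKG7 and CSF1R were below it as well.

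**Figure D3:**
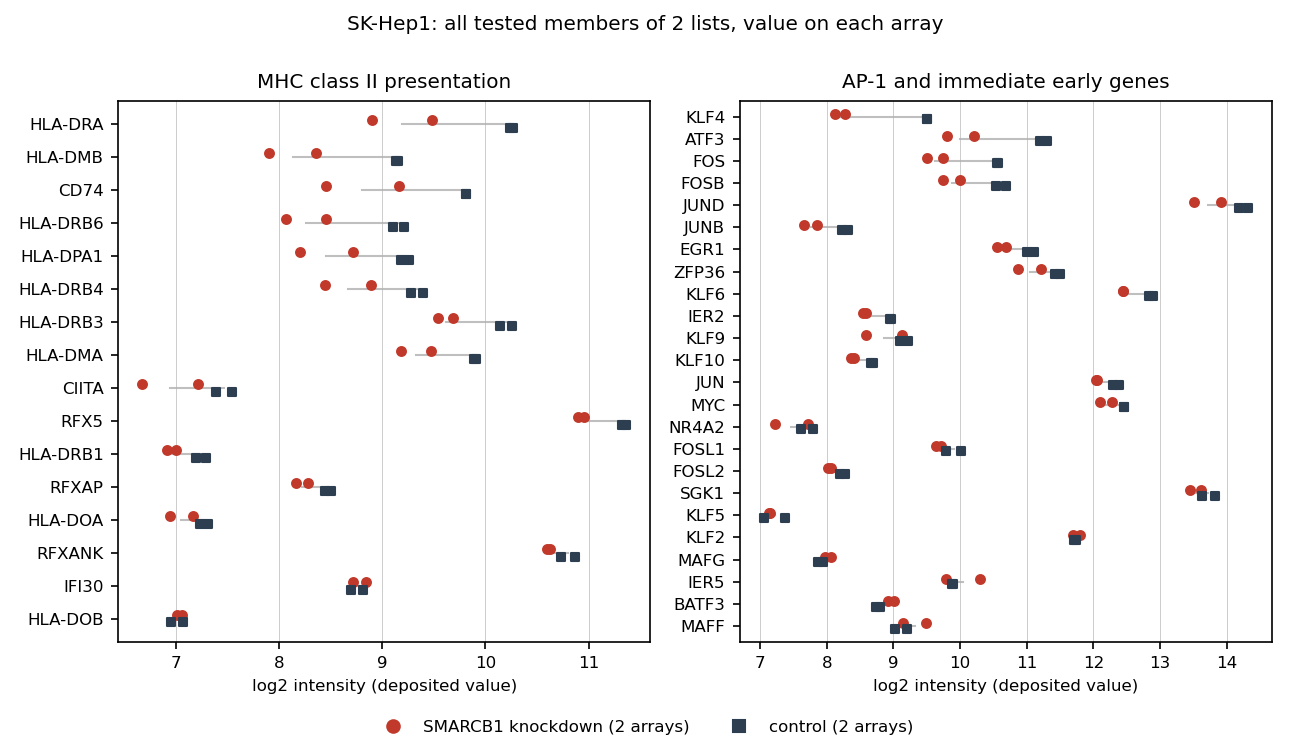
Log2 intensity (x axis) of every tested member of 2 lists, the 16 MHC class II genes (left) and the 24 AP-1 and immediate early genes (right), on the 2 knockdown arrays (red circles) and the 2 control arrays (dark squares), ordered by the difference. Of the class II genes 11 fell, HLA-DRA, HLA-DMB and CD74 most, and of the AP-1 and immediate early genes 13 fell, KLF4, ATF3 and FOS most.

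Many genes of the AP-1 and immediate early list, though not all, are switched on within minutes of a stimulus. Of 24 tested, 13 fell (54.2%, against 8.19% of all genes), none rose and 11 did not pass the threshold, with a median of -0.29. The zinc finger factor gene KLF4 read 8.13 and 8.27 after knockdown and 9.50 and 9.50 in controls (-1.30 ± 0.0788 SE, adjusted p = 6.54e-06, and -0.82 on its other probe). ATF3, a stress-induced AP-1 partner, read 9.80 and 10.21 after knockdown and 11.30 and 11.20 in controls (-1.24 ± 0.115 SE, adjusted p = 0.000106, and -0.65 on its other probe). FOS, a subunit of AP-1, read 9.51 and 9.74 after knockdown and 10.57 and 10.55 in controls (-0.93 ± 0.0817 SE, adjusted p = 8.08e-05). FOSB fell by 0.74, JUND by 0.54, JUNB by 0.51 and EGR1 by 0.43, and JUND was at -0.33 without knockdown array 11, with an adjusted p of 0.0798 without control array 2. Between 9 and 14 genes of the list fell with any 1 SK-Hep1 array left out, and 2 rose without knockdown array 11. FOSL1 and FOSL2 were at -0.23 and -0.20 and did not pass the threshold. Of 21 feedback genes of MAPK signalling 4 fell (19%, against 8.19%) and 2 rose (9.52%, against 8.04%), with a median of -0.04. The inhibitor genes SPRY1 and ERRFI1 fell by 0.95 and 0.81, while the phosphatase gene DUSP5 (0.48) and the transcription factor gene ETV4 (0.23) rose. Without control array 1, 2 of the list fell and none rose, and without control array 2, 2 fell and 1 rose. Without knockdown array 12, 1 rose. The adjusted p of DUSP5 was 0.0647 without control array 1, and that of ETV4 was 0.114 without control array 1, 0.127 without control array 2 and 0.126 without knockdown array 12.

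EFNA1, which encodes the membrane-bound ligand ephrin-A1, had the largest fall of all. It read 10.40 and 10.51 after knockdown and 12.05 and 12.19 in controls (-1.66 ± 0.0784 SE, adjusted p = 2.08e-06). FILIP1L read 10.69 and 10.15 after knockdown and 11.99 and 11.96 in controls, with array 12 the lower of the knockdown pair (-1.55 ± 0.139 SE, adjusted p = 9.08e-05). PPL, periplakin, which ties keratin filaments to desmosomes, read 7.62 and 7.44 after knockdown and 8.83 and 8.85 in controls (-1.31 ± 0.076 SE, adjusted p = 4.51e-06). Of 31 epithelial keratin and junction genes, PPL included, 9 fell (29%, against 8.19% of all genes) and 3 rose. Those that fell included the keratin genes KRT8 (-0.70) and KRT19 (-0.47), the integrin gene ITGB4 (-0.58) and EPCAM (-0.68 on its brightest probe and as little as -0.08 on its others). With either control array left out, 1 gene of the list rose. The orphan nuclear receptor gene NR2F1 fell by 0.96, the carboxypeptidase gene CPA4 by 0.97, the hyaluronan synthase gene HAS2 by 0.89 on its brightest probe and as little as 0.08 on its others, and the protease gene HTRA1 by 0.89, with knockdown array 12 below the background cutoff.

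ATF4 is a transcription factor that amino acid shortage and other stresses induce. Of 37 ATF4 target and amino acid synthesis genes 18 fell (48.6%) and 3 rose (8.11%), with a median of -0.26. CHAC1, which breaks down glutathione, read 7.19 and 7.03 after knockdown and 8.63 and 8.50 in controls (-1.46 ± 0.0896 SE, adjusted p = 7.06e-06), so that the knockdown arrays were close to the background cutoff. SESN2, sestrin 2, an inhibitor of mTORC1 signalling, read 7.76 and 8.15 after knockdown and 9.15 and 9.24 in controls (-1.24 ± 0.109 SE, adjusted p = 8.32e-05). CEBPG, a dimer partner of ATF4, read 11.04 and 11.44 after knockdown and 12.25 and 12.11 in controls (-0.93 ± 0.112 SE, adjusted p = 0.000491). All 4 arrays were separated by group for these genes, and array 11 was the lower of the knockdown pair for SESN2 and CEBPG. The serine synthesis genes PHGDH and PSPH fell by 0.62 and 0.47, the mitochondrial folate enzyme gene MTHFD2 by 0.59 and TRIB3 by 0.59. ATF4 itself fell by 0.41 on its brightest probe, whereas its 3 probes ran from -0.55 to 0.24. ASNS (-0.26) and PSAT1 (0.02) did not pass the threshold. Between 15 and 18 of the list fell with any 1 SK-Hep1 array left out, and 1 rose without control array 1 and none without control array 2. Chaperones of the unfolded protein response did not fall: of 27 tested 2 rose and none fell, HSPA5 was at 0.43 and did not pass the threshold, and the median was 0.21, with 7 rising without knockdown array 11, 4 without array 12 and none without either control array.

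The upstream sequence of CHAC1 is shown for the ATF4 group, since ATF4 with a C/EBP partner binds composite sites with the letters TGATGNAA. It lies at chr15:40953221-40953470 (plus strand) (RefSeq, GRCh38.p14), and capitals mark the match, here on the opposite strand.
CHAC1: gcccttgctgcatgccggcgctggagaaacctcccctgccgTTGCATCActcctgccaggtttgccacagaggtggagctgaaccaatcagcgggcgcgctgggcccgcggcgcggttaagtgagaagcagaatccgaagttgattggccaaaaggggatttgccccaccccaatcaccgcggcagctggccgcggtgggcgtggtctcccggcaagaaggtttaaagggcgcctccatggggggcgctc
Over all promoters of this length 3.19% held a match on either strand. Of the 37 ATF4 target genes tested, 31 were matched to a promoter and 2 of them held one (6.45%), including 1 of the 16 matched genes that fell, so most members have no such letters in this window.

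Lipid synthesis genes fell in part. SCD, which puts the first double bond into fatty acids, was among the brightest genes and read 13.17 and 13.32 after knockdown and 14.31 and 14.47 in controls (-1.15 ± 0.0813 SE, adjusted p = 1.94e-05). SREBF1, the transcription factor that drives fatty acid synthesis, fell by 0.67, LPIN1 by 0.63, FASN by 0.55 and the rate-limiting carboxylase gene ACACA by 0.45. Of 26 fatty acid and glycerolipid genes 8 fell (30.8%) and none rose, with a median of -0.11. Of 28 cholesterol genes 9 fell (32.1%) and 3 rose, with a median of -0.16, and 5 fell without control array 1. The synthesis enzyme genes DHCR7 and MSMO1 fell by 0.63 each, MSMO1 on its brightest of 3 probes, which ran from -0.63 to -0.10. None of the 3 that rose is a synthesis enzyme. ABCA1, which exports cholesterol, read 12.10 and 12.10 after knockdown and 10.94 and 11.24 in controls (1.01 ± 0.0907 SE, adjusted p = 9.08e-05), MYLIP, which degrades the LDL receptor, rose by 0.54, and NPC1, which moves cholesterol out of lysosomes, by 0.47. MYLIP was at 0.33 without knockdown array 12, its adjusted p was 0.0834 without control array 2, and that of NPC1 was 0.14 without knockdown array 12, 0.19 without control array 1 and 0.135 without control array 2, so that 1 gene of the list rose without control array 2. INSIG1, which holds back SREBP activation, read 11.54 and 12.56 after knockdown and 12.08 and 11.80 in controls, so the knockdown arrays lay on either side of the controls.

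Of 62 mitosis and spindle genes 36 fell (58.1%) and none rose, with a median of -0.31. The kinase gene NEK2, which acts at the centrosome, read 10.61 and 10.34 after knockdown and 11.05 and 11.12 in controls (-0.61 ± 0.105 SE, adjusted p = 0.00395). The kinesin gene KIF15 read 9.14 and 9.07 after knockdown and 9.74 and 9.57 in controls (-0.55 ± 0.0904 SE, adjusted p = 0.0032). CCNB2, a mitotic cyclin, read 11.58 and 11.49 after knockdown and 11.96 and 11.94 in controls (-0.42 ± 0.0671 SE, adjusted p = 0.00282). FOXM1, a transcription factor of mitotic genes, fell by 0.48 and CCNA2, another mitotic cyclin, by 0.45. CDK1 (-0.02) and the proliferation marker gene MKI67 (-0.19) did not pass the threshold. The count was 17 without control array 1, 22 without knockdown array 12, 24 without control array 2 and 43 without knockdown array 11, and 1 gene rose without array 12. The median of the list was -0.23 on array 11 and -0.35 on array 12, against the same controls. DNA replication genes, which act earlier in the cycle, had 9 of 53 lower (17%) and none higher, with a median of -0.14. That count rests on single arrays: 21 fell without knockdown array 11, 1 fell and 6 rose without knockdown array 12, and none fell without control array 1 and 1 without control array 2.

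The upstream sequence of CCNB2 is printed because promoters of mitotic genes are known to carry CCAAT boxes, bound by NF-Y, and a cell cycle homology region with the letters TTTGAA. It lies at chr15:59104896-59105145 (plus strand) (RefSeq, GRCh38.p14). Capitals mark CCAAT and TTTGAA on either strand.
CCNB2: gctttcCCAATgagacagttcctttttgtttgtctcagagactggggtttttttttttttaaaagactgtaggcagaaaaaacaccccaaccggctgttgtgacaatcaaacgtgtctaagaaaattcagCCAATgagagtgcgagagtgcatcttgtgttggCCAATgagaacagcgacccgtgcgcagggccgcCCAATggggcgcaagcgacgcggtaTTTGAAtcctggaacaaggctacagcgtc
The window holds 4 matches to CCAAT and 1 to TTTGAA, and no match overlapped another. The letters CCAAT were in 33% of all promoters of this length and TTTGAA in 13.6%. Of the 62 mitosis genes, 54 were matched to a promoter, of which 40 held CCAAT (74.1%) and 29 held TTTGAA (53.7%). Among the 32 matched genes that fell, 24 held CCAAT (75%) and 14 held TTTGAA (43.8%).

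Hypoxia and glycolysis genes had 10 of 40 higher (25%) and 1 lower, with a median of 0.02. With the 4 SK-Hep1 arrays fitted alone, 9 rose and none fell. With a trended, robust variance prior in the limma fit, 10 rose and 4 fell. The median ran from -0.009 to 0.07 with 1 SK-Hep1 array left out. EPAS1, the alpha subunit of HIF-2, read 11.53 and 11.58 after knockdown and 10.61 and 10.68 in controls (0.91 ± 0.0683 SE, adjusted p = 3.2e-05). HIF1A, the alpha subunit of HIF-1, rose by 0.58 (adjusted p = 0.051 without control array 1), the glucose transporter gene SLC2A1 by 0.61 and the glycolysis regulator gene PFKFB3 by 0.57. VEGFA (-0.26), LDHA (0.02) and CA12 (0.04) did not pass the threshold. Of the Wnt list 14.7% rose and 20.6% fell, and of the YAP list 3.7% rose and 29.6% fell. Over all genes 8.04% rose and 8.19% fell. Of 34 Wnt pathway genes 5 rose and 7 fell, among them the nuclear factor gene LEF1 (-0.80) and the feedback gene AXIN2 (-0.67), with 2 rising and 2 falling without control array 1, 2 rising and 3 falling without control array 2, and 2 falling without knockdown array 12. Of 27 YAP target genes 8 fell and 1 rose, GADD45B by 0.98 and the tissue factor gene F3 by 0.72, with 4 falling without either control array, 4 rising without knockdown array 11 and 2 rising without knockdown array 12. Of 10 mesenchymal markers 3 fell and 1 rose, and 1 fell without either control array. Of 12 hepatocyte markers tested, AFP (0.48) and SERPINA1 (0.58) rose and none fell, and ALB was at -0.05. Neither of the 2 endothelial markers tested, PECAM1 (-0.17) and ROBO4 (-0.04), passed the threshold. In the lists that remain, the share higher ran from 0% to 18.9% and the share lower from 2.7% to 25.8%, against 8.04% and 8.19% of all genes. The remaining 9 lists, of 21 to 41 tested genes each, had between 0 and 7 genes higher and between 1 and 8 lower, with medians from -0.09 to 0.15, and with any 1 SK-Hep1 array left out between 0 and 7 were higher and between 0 and 8 lower.

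**Figure D4:**
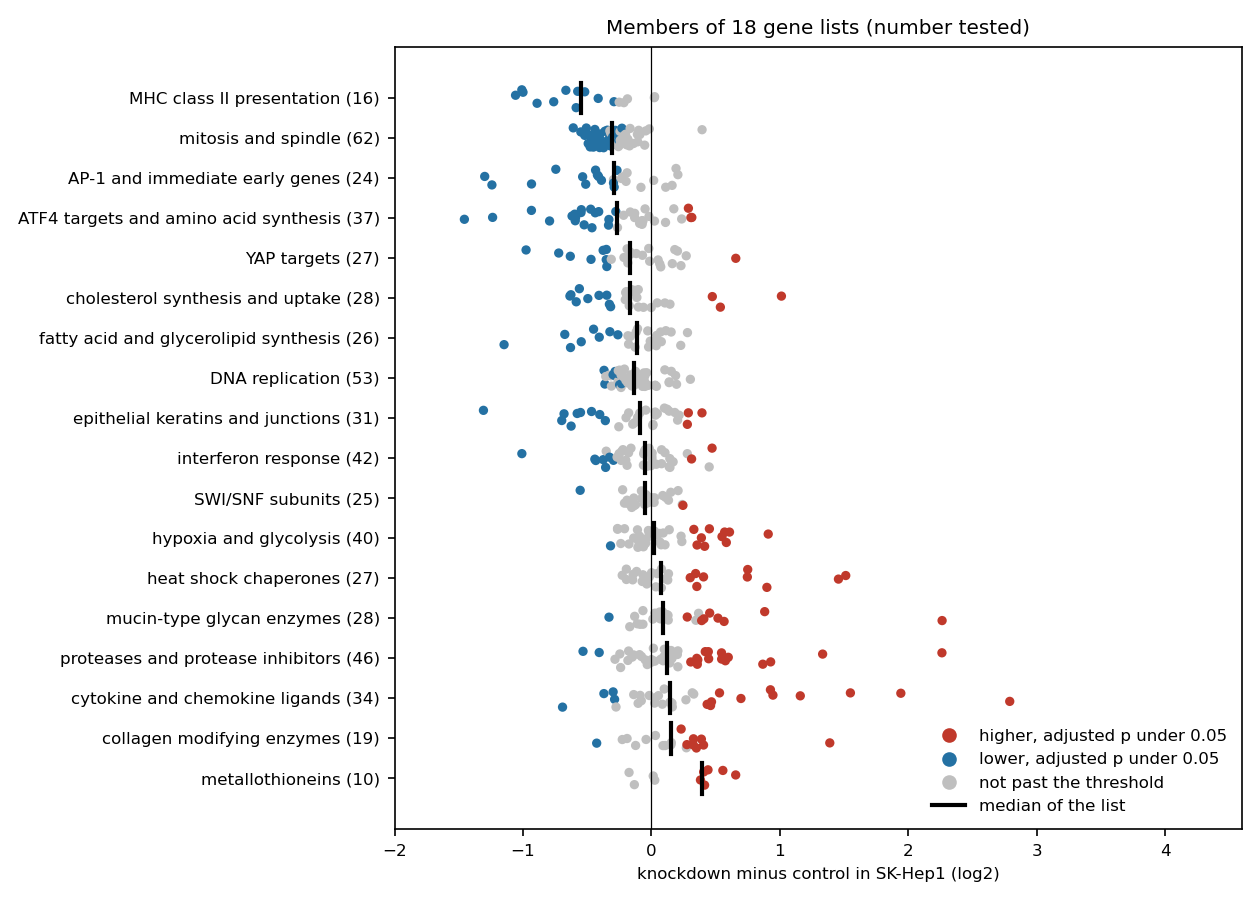
Knockdown minus control in SK-Hep1 (log2, x axis) for the tested members of 18 gene lists, red where a gene rose, blue where it fell and grey where it did not pass the threshold, with a black bar at the list's median. MHC class II genes have the lowest median of the lists drawn at -0.55 and metallothionein and zinc genes the highest at 0.39.

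The 2 knockdown arrays were compared with each other, since they may carry different hairpins. Between them 130 genes differed by more than 0.5, against 20 between the 2 control arrays, and 3 differed by more than 1, against 0. CCL2, a monocyte chemokine, read 10.02 and 8.86 after knockdown and 8.43 and 8.604 in controls, so that array 11 was far above the controls and array 12 just above them (0.93 ± 0.265 SE, adjusted p = 0.0383). DHRS3, a retinal reductase gene, read 10.63 and 9.52 after knockdown and 10.04 and 9.91 in controls, with array 11 above both controls and array 12 below both. OLR1, a receptor for oxidised LDL, read 9.63 and 10.53 after knockdown and 9.10 and 9.22 in controls, with array 12 the higher of the pair (0.92 ± 0.21 SE, adjusted p = 0.0151). MTUS1 followed the pattern of OLR1 at 8.83 and 9.63 after knockdown and 8.44 and 8.27 in controls. Without control array 1 the adjusted p was 0.187 for CCL2, 0.106 for OLR1 and 0.0591 for MTUS1, and without control array 2 it was 0.111 for CCL2, 0.0659 for OLR1 and 0.0904 for MTUS1. The interferon-induced gene MX1 read 10.06 and 9.18 after knockdown and 9.39 and 9.52 in controls, and the class I region transcript HCP5 read 7.91 and 7.12 after knockdown and 7.49 and 7.65 in controls. In both, array 11 was above and array 12 below the controls. LUM, the matrix proteoglycan lumican, read 10.32 and 11.19 after knockdown and 11.35 and 11.26 in controls, with array 11 well below the controls and array 12 just below them. The glucose transporter gene SLC2A3 (9.11 and 9.96 after knockdown and 9.49 and 9.60 in controls) and C1orf115 (10.15 and 10.98 after knockdown and 10.68 and 10.82 in controls) had array 11 below and array 12 above the controls. With 1 array for each number, these differences have no replicate check.

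**Figure D5:**
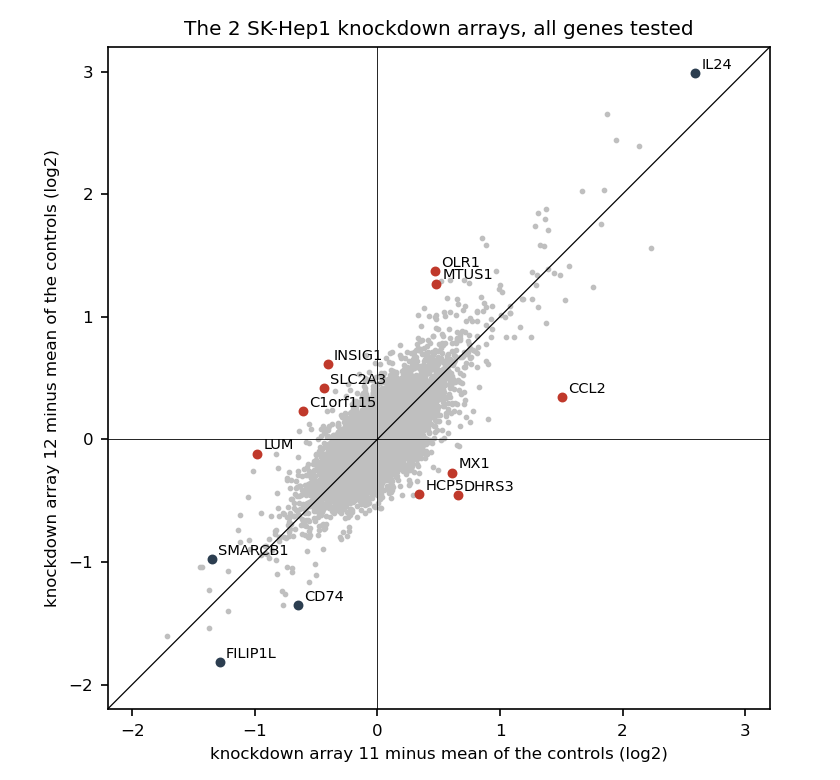
Each point is 1 of the 12728 genes tested, with knockdown array 11 minus the mean of the controls on the x axis and knockdown array 12 minus the same mean on the y axis (log2), so that both axes share the control arrays. Red points are the 10 genes for which the knockdown arrays differed most, among them CCL2 and LUM, and dark points are SMARCB1, IL24, CD74 and FILIP1L, which moved the same way on both arrays.

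The titles number both Huh7 knockdown arrays 11, and the Huh7 control is named for GFP, so neither the hairpins nor the controls need be those of SK-Hep1. If line differences were taken out before deposit, that step may also have changed the size of differences within a line, which was not tested. Against SMARCB1 knockdown in Huh7, the difference itself was tested for every gene, and 30.5% of all genes passed (3885 genes, 2549 without Huh7 control array 1 and 2521 without Huh7 control array 2). Of the 59 genes changed at least 2-fold in SK-Hep1, 57 passed. As these 59 were picked for a large difference in SK-Hep1, that share is a description. In Huh7, 20 of the 59 changed in the same direction, 11 changed in the opposite direction and 28 did not pass the threshold. That is 33.9% in the same direction, beside 556 (26.9%) of the 2066 genes past the threshold in SK-Hep1. STOM (1.00 in SK-Hep1 and 0.82 in Huh7) and KYNU (1.11 in SK-Hep1 and 0.82 in Huh7) were the 2 whose differences between the lines did not pass. PPL was at -1.31 in SK-Hep1 and at 1.28 in Huh7, and FILIP1L at -1.55 in SK-Hep1 and 1.19 in Huh7. LFNG was at 1.17 in SK-Hep1 (0.07 on its other probe) and -1.33 in Huh7, and WNK4 at 1.58 in SK-Hep1 and -0.90 in Huh7. On its brightest probe, each of these genes passed the threshold in both lines. The MHC class II list had a median of -0.55 in SK-Hep1 and 0.02 in Huh7, and 10 of its 16 genes differed between the lines, among them HLA-DRA (-1.06 in SK-Hep1 and 0.06 in Huh7) and HLA-DMB (-1.01 in SK-Hep1 and -0.17 in Huh7). The mitosis list had a median of -0.31 in SK-Hep1 and 0.11 in Huh7, and 35 of its 62 genes differed between the lines. ATF4 targets had medians of -0.26 in SK-Hep1 and -0.29 in Huh7, and 19 of 37 differed.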

How the data were processed

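Total RNA of SK-Hep1 and Huh7 cells was amplified to biotin-labelled cRNA from 0.55 µg and hybridised to Illumina bead arrays, 8 arrays in 4 groups of 2, grouped by their titles. The authors deposited log2 intensities per probe, made with GenomeStudio 2011.1 per the submitters' processing notes. How they were normalized and corrected for background is not stated in the sources used here, and the log2 scale was read from the range of the values. The array medians ran from 6.931 to 6.934. A second table, with 16 value columns (signals and detection p-values) whose names match no sample label, was not used. The values of the 2 lines differ so little (SD over genes 0.0287) that line differences may have been taken out before deposit, which no source used here states, and levels may not be a line's own. Differences within a line are used, and whether such a step changed their size is not known.

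Probes took their gene from the platform annotation: 30110 of 47319 probes had 1 symbol, 8 had several and 17201 had none. A probe was kept where its mean over the 8 arrays exceeded 6.97, the 95th percentile of 616 probes for receptors of smell and taste, hair proteins and defensins, which gave 22336 probes. The brightest probe of a gene by that mean stood for it. Differences came from lmFit and eBayes of limma 3.58.1 under R 4.3.3 (4 group means, 4 residual degrees of freedom, two-sided, Benjamini-Hochberg over 12728 genes, threshold 0.05), so the Huh7 arrays entered the SK-Hep1 comparison through the spread only. SEs ran from 0.0631 to 0.365 (median 0.0799), and 2 arrays a group limit the precision. The fit was tested on simulated data. No set test was run: lists are described by counts and medians.

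The named genes, over which calls are counted below, are SMARCB1, all genes changed at least 2-fold and further genes chosen by rule. These are the 30 largest rises and falls with arrays that do not overlap and up to 6 called members of each of 44 lists. The 10 genes that differed most between the knockdown arrays were added. The text gives values for a part of the named genes, and for other list members as examples. The members and lists were chosen with earlier results of these data known. Promoters were the 250 bases before the start in a RefSeq table (GRCh38.p14), matched by gene symbol and searched on both strands. Alternatives changed the samples fitted, the probe filter, the normalization, the weights, the variance prior and the probe per gene, or left out 1 array.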

Additional observations from a re-analysis of the deposited data

Results flagged for a closer look

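The difference between knockdown and control was larger or smaller in SK-Hep1 than in Huh7, by a test of the difference itself (limma, adjusted p under 0.05), for 3885 of the 12728 genes. Among the genes changed at least 2-fold in SK-Hep1, 57 passed this test, with adjusted p-values from 1.03e-06 to 0.0352. Values are on the log2 scale, the difference in SK-Hep1 less that in Huh7, for the brightest probe of a gene. Other probes can differ: in SK-Hep1 the other probe of LFNG was at 0.07, and those of LAT went as low as 0.21. They rest on deposited values whose processing across the lines is not stated.

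The secreted signals and hormones were 2.94 for IL24, 1.79 for CSF3, 0.85 for CXCL6, 1.23 for CCL5, 0.95 for FGF2 and 2.20 for SCG5, while NPPB was at -1.55, with the larger rise in Huh7 (1.90 in SK-Hep1 and 3.45 in Huh7). Receptors, membrane and signalling genes were 2.48 for WNK4, 2.22 for AGTR1, 2.11 for CD14, 1.71 for TNFRSF1B, 1.68 for SIRPA, 1.38 for ADORA2A, 1.37 for SERINC2, 1.28 for FCMR, 1.15 for TM4SF19, 1.10 for LAT, 1.07 for SHISA2, 1.05 for FOLR3, 0.86 for TM4SF4, 0.80 for S1PR3 and -0.97 for LYPD6B. Matrix genes, proteases and inhibitors were 2.36 for SERPINA9, 1.27 for COL6A1, 1.24 for MMP9, 1.19 for P3H2, 1.15 for IGFBP5 and 0.86 for SERPIND1. Genes of glycans, metabolism and transport were 2.50 for LFNG, 1.98 for GCNT3, 1.77 for RDH10, 1.30 for TDO2, 1.24 for ABCA1, 1.06 for G0S2, 0.99 for QPCT and 0.80 for GM2A. Stress genes were 0.91 for HSPA1B, 0.88 for HMOX1 and 0.67 for HSPA1A, and the remaining rises were 2.05 for SPOCD1, 1.60 for SBSN, 1.52 for SCIN, 0.87 for SP140 and 0.72 for C1QTNF1.

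Among the falls, FILIP1L was at -2.74, PPL at -2.59, ATF3 at -1.62, CHAC1 at -1.38, IRF1 at -1.20, HLA-DRA at -1.12, CD74 at -0.92, HLA-DMB at -0.84, SCD at -0.71, KLF4 at -0.60, SESN2 at -0.56 and EFNA1 at -0.55. SMARCB1 itself was at 0.48, with the larger fall in Huh7 (-1.16 in SK-Hep1 and -1.65 in Huh7). Of the 57 genes, 11 moved in opposite directions in the 2 lines and passed the threshold in each. Among the other named genes past the threshold in SK-Hep1, 137 of 197 differed between the lines, beside 30.5% of all genes. The 57 and the 197 were picked by their difference in SK-Hep1, which enters this test, so both counts are descriptions.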

How the results depend on the processing

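With 16 alternatives, all 59 genes changed at least 2-fold kept an adjusted p under 0.05 where they were tested, and no call among the named genes reversed. The count of genes past the threshold, 2066 as reported, was 1097 with the 4 SK-Hep1 arrays fitted alone and 1183 with array weights, and ran from 910 (without control array 1) to 2411 (without knockdown array 11) with 1 array left out. Of 256 named genes past the threshold, 72 lost it in at least 1 setting. The number of genes changed at least 2-fold ran from 57 to 83, and SMARCB1 from -1.35 to -0.976, with 1 array left out. Averaging all kept probes of a gene, in place of taking its brightest, lowered the 2-fold count from 59 to 50. No other alternative gave a smaller count, so the size of this set depends in part on the probe chosen. The number of genes that differed between the lines, 3885 as reported, ran from 2521 (without Huh7 control array 2) to 4477 (without SK-Hep1 knockdown array 11). The cause of these shifts was not tested. Dim genes are limited by the background: 19 of the 46 rises of at least 2-fold had a control mean under 8, and 4 had both controls under the cutoff. No paired analysis was possible because the SK-Hep1 knockdown arrays are numbered 11 and 12 and the control arrays 1 and 2, so the groups share no number.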
